A study of Mus musculus with 12 samples.

Results

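The MTRNR2L genes described here are MTRNR2L1, MTRNR2L2, MTRNR2L5, MTRNR2L6, MTRNR2L7 and MTRNR2L10, nuclear near copies of a stretch of the mitochondrial large ribosomal RNA. They are 6 of the 26485 gene rows of the deposited count table and 6 of its 10 MTRNR2L rows. They were picked by symbol with their levels across the 4 groups known, so their levels and changes are a description and carry no p-value. All 6 passed the filter on low counts and stood among the 7465 genes tested. The filter asked for 10 counts in 3 libraries, which the input libraries alone could supply.

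The 12 libraries came from CD4+ T cells of C57BL/6 mice, sorted on CD4 and CD45, in 4 groups of 3: 4E heavy, OA heavy, 4E input and OA input. All mice had been immunised (the label reads AOV alum) and were then dosed by mouth each day for 7 days, with either 4EGI-1 at 25 mg/kg or vehicle alone. 4EGI-1 is a compound that blocks the cap-binding translation factor eIF4E. The labels never spell out the arm names. Here 4E was taken to be the 4EGI-1 arm and OA to be vehicle, and every arm difference is 4E minus OA. Input is total mRNA by its label, and heavy is RNA from the heavy polysome fractions of a sucrose gradient, where transcripts that carry many ribosomes sediment. Since the labels do not tie replicates to separate animals, every p-value rests on a spread between samples that may be technical. In bulk RNA, fewer cells of a type and less RNA per cell cannot be told apart.

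In the human genome the MTRNR2L family is a set of intronless nuclear copies of part of MT-RNR2, the gene of the 16S ribosomal RNA of the mitochondrial ribosome. Such copies arose when mitochondrial sequence was inserted into nuclear chromosomes. The copied stretch spans the short reading frame of humanin, a small secreted peptide studied in humans for its protection of cells from death, and the human MTRNR2L genes are annotated as coding for humanin-like peptides. The members are also called humanin-like 1, 2, 5, 6, 7 and 10, and what sets the function of one apart from another is not established. Because the copies resemble each other and the mitochondrial gene, short reads of one may be counted in another.

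The symbols are human in style although the samples are mouse. Of the 10 MTRNR2L rows, 0 matched a mouse gene symbol when case was ignored, against 16185 of all 26485 rows and 6857 of the 7465 tested rows. The mouse annotation held 1 gene with the family name as a synonym, Gm20594, annotated as protein coding. No source used here says which mouse sequence gave the reads of each human-style row. The mouse pair of copy and source is shown to let the likeness be seen base by base. Both stretches are from GENCODE M21 transcripts on GRCm38. The first is chr6:79818251-79818347 on the plus strand, the start of the coding sequence in the single exon of Gm20594. The second is chrM:2070-2166 on the plus strand, inside mt-Rnr2, the mouse 16S ribosomal RNA gene. Capitals mark the bases that differ between them.
Gm20594: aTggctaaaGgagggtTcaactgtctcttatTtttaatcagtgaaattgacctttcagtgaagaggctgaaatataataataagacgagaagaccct
mt-Rnr2: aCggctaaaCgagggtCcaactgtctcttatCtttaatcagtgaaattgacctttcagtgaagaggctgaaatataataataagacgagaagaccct

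The printed stretches hold 97 bases each and differ at 4 of them, and the first of these differences makes the start codon of the nuclear copy. A local alignment of the whole transcripts joined bases 1 to 435 of Gm20594 (449 bases in all) to bases 645 to 1077 of mt-Rnr2 (1582 bases in all). It held 439 columns, of which 388 were identical (88.4%), 41 were mismatches and 10 were gaps. The longest run without a difference was 65 bases. Of 32 mitochondrially encoded gene symbols looked for, 0 were in the count table, so no row of it is named for mt-Rnr2. Whether reads of mt-Rnr2 were counted in the MTRNR2L rows was not tested.

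The libraries held 691449 to 1906657 gene reads, spread over 8253 to 12185 rows with a count above 0. Small noncoding RNAs such as snoRNAs and the 7SL RNA, a class defined after its values were seen, took 3.14% to 78.3% of these reads. Levels are counts-per-million (CPM) after trimmed-mean (TMM) scaling, with factors of 0.411 to 2.03, and a row listed at 0 may hold as much as 3 counts, which is 0.774 to 6.77 CPM by library. OA replicate 1 stood apart from the other OA libraries in both fractions, with the lowest small noncoding RNA share of its group each time, 3.14% in heavy and 33.6% in input. The title of 4E heavy replicate 3 carries the word ReSubmission. Of 6 CD4 T cell markers, 5 had counts and CD3D was at 0 in all libraries. Their summed level was 773 to 998 CPM in 4E heavy and 701 to 1132 CPM in OA heavy. In input it was 624 to 881 CPM in 4E and 720 to 1134 CPM in OA. The highest were PTPRC, with group means of 366 to 523 CPM, and LCK, with 288 to 382 CPM. CD4 itself held 100 reads in all, with means of 4.27 CPM in 4E heavy, 5.30 in OA heavy and 5.53 in OA input. It had 0 reads in 4E input, where a 0 allows 6.46 to 6.77 CPM by library.

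The reads of the family lay almost wholly in a pair of rows. Over the 12 libraries MTRNR2L6 held 67968 reads, 79.4% of all MTRNR2L reads, and MTRNR2L7 held 14891 reads, 17.4%. MTRNR2L1 followed with 1523 reads, MTRNR2L5 with 733, MTRNR2L2 with 230 and MTRNR2L10 with 121. Of the other MTRNR2L rows, MTRNR2L8 held 74 reads and was tested, while MTRNR2L9 with 44, MTRNR2L3 with 20 and MTRNR2L4 with 5 fell under the filter. These are reads counted per row, not levels per length, since no length is given for a row. MTRNR2L10, the member just inside the filter, had at least 10 reads in 6 libraries, and MTRNR2L9, the row just outside it, reached at most 9 reads in any library.

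Together the 10 rows took 0.793%, 0.517% and 0.334% of gene reads in the 4E heavy libraries and 0.0883%, 0.268% and 0.344% in the OA heavy libraries. In input they took 0.985%, 0.777% and 0.605% in 4E and 0.897%, 1.16% and 0.688% in OA. The lowest share, in OA heavy replicate 1, had a 95% Wilson interval of 0.0842% to 0.0926%, and the highest, in OA input replicate 2, one of 1.14% to 1.18%. These intervals cover counting error only. As plain shares of gene reads, 4E heavy and 4E input overlapped, while every OA heavy library lay below every OA input library.

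MTRNR2L6, the row with the most reads, was highest in input. Its levels were 3695, 2481 and 1556 CPM in 4E heavy and 371, 1155 and 1490 CPM in OA heavy. In input it stood at 16641, 13543 and 9974 CPM in 4E and at 5770, 19009 and 9433 CPM in OA. The means were 2578 ± 1073 CPM in 4E heavy, 1005 ± 574 CPM in OA heavy, 13386 ± 3336 CPM in 4E input and 11404 ± 6836 CPM in OA input (SD, n = 3 each). Every heavy library was below every input library, and every 4E heavy library was above every OA heavy library, the nearest pair being 4E heavy replicate 3 and OA heavy replicate 3. In input the arms overlapped: the highest and the lowest of the 6 libraries were both OA.

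MTRNR2L7, the second row by reads, had the same layout. Its levels were 804, 505 and 402 CPM in 4E heavy and 53.7, 242 and 365 CPM in OA heavy, against 3893, 4299 and 2880 CPM in 4E input and 799, 4260 and 2357 CPM in OA input. The lowest OA input library, replicate 1, lay just under the highest 4E heavy library, so the fractions overlapped across arms but not within an arm. Here too the 4E heavy libraries lay above all OA heavy libraries, and the input arms overlapped.

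MTRNR2L1 had 61.1, 34.5 and 39.1 CPM in 4E heavy and 4.65, 21.1 and 46.0 CPM in OA heavy. In input it had 504, 652 and 298 CPM in 4E and 42, 453 and 252 CPM in OA. OA input replicate 1 lay below OA heavy replicate 3, so this member is the one whose OA fractions overlapped, while its 4E fractions did not. The heavy arms overlapped as well.

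MTRNR2L5 had 17.9, 34.5 and 31.1 CPM in 4E heavy and 2.84, 4.45 and 22.4 CPM in OA heavy, against 187, 239 and 127 CPM in 4E input and 42.4, 206 and 122 CPM in OA input. The heavy arms overlapped through 4E heavy replicate 1 and OA heavy replicate 3, and the fractions did not overlap in either arm.

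The last pair of members rested on few reads. MTRNR2L2 had 11, 6 and 15 reads in 4E heavy and 7, 0 and 10 reads in OA heavy, against 32, 40 and 13 reads in 4E input and 22, 56 and 18 reads in OA input. The 0 in OA heavy replicate 2 allows a level of up to 1.67 CPM. MTRNR2L10 had 4, 1 and 4 reads in 4E heavy and 1, 4 and 1 reads in OA heavy, against 15, 18 and 14 reads in 4E input and 16, 31 and 12 reads in OA input. With so few heavy reads, an arm difference of MTRNR2L10 in heavy was not detectable at this depth.

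**Figure D1:**
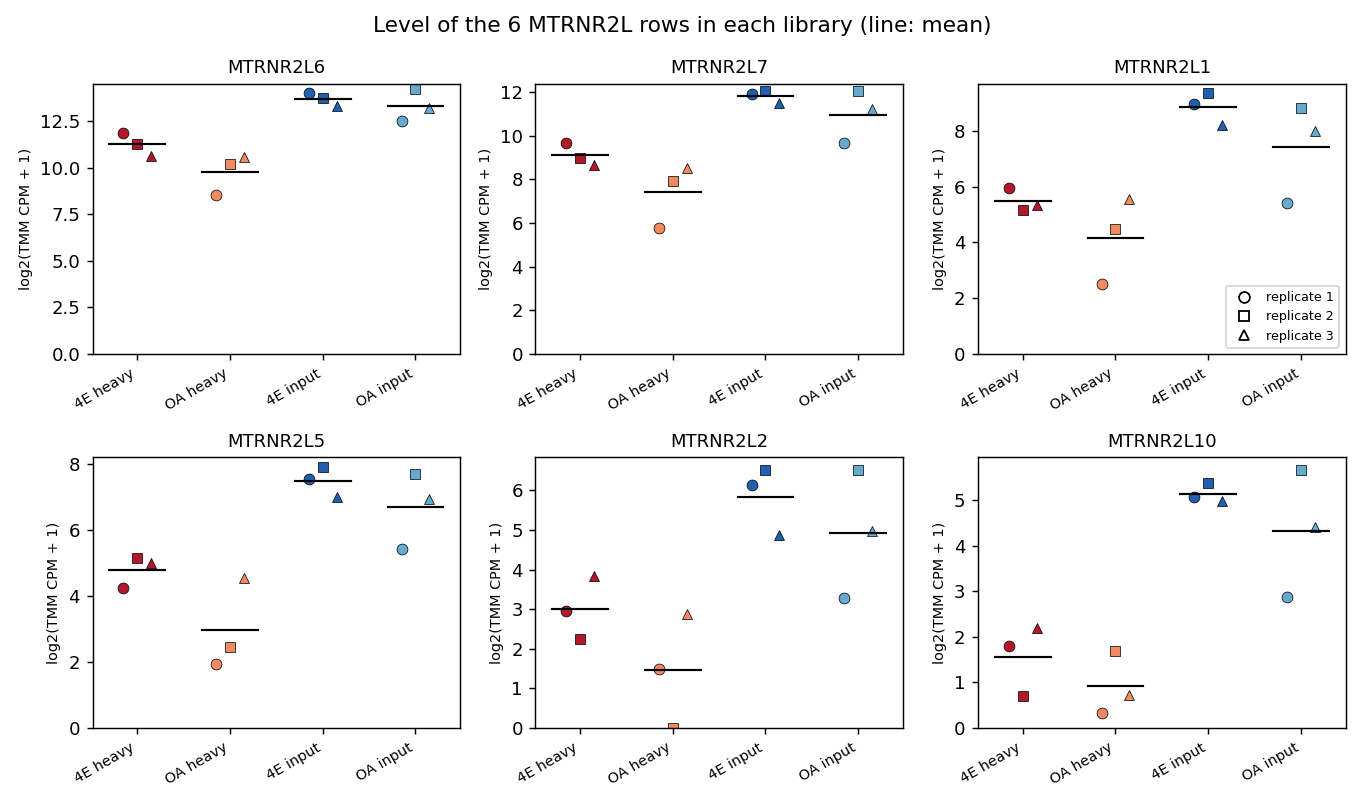
Level of each of the 6 MTRNR2L members in each library, as log2(TMM CPM + 1), with 1 panel per member, groups along the x axis, marker shapes for replicates and a line at the group mean. In all 6 panels the heavy means lie below the input means, and OA replicate 1 (circle) is the lowest of its OA input group in every panel and the lowest of its OA heavy group in all but MTRNR2L2.

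For the abundant members the spread between libraries was far wider than the counting error. The coefficient of variation that counting alone gives was 0.825% to 2.64% for MTRNR2L6, and the one between libraries of a group was 24.9% to 59.9%. For MTRNR2L7 the counting values were 1.95% to 6.93% and the values between libraries 19.8% to 71.2%. For MTRNR2L10 both ran over like ranges, 18.0% to 100% for counting and 15.4% to 100% between libraries.

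Most MTRNR2L reads lay in MTRNR2L6 in every library. It took 79.2% ± 2.74 of MTRNR2L reads in 4E heavy, 81.1% ± 4.20 in OA heavy, 74.7% ± 3.17 in 4E input and 80.8% ± 5.0 in OA input (SD, n = 3 each). MTRNR2L7 had 21.7, 20.3 and 25.8 reads for each 100 reads of MTRNR2L6 in 4E heavy and 14.5, 20.9 and 24.5 in OA heavy, against 23.4, 31.7 and 28.9 in 4E input and 13.9, 22.4 and 25.0 in OA input. OA replicate 1 had the lowest of these ratios in both fractions. MTRNR2L1 had 1.65, 1.39 and 2.51 reads for each 100 of MTRNR2L6 in 4E heavy, 1.25, 1.83 and 3.09 in OA heavy, 3.03, 4.81 and 2.98 in 4E input and 0.728, 2.38 and 2.67 in OA input. Whether these ratios reflect transcripts or the way shared reads were assigned was not tested.

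**Figure D2:**
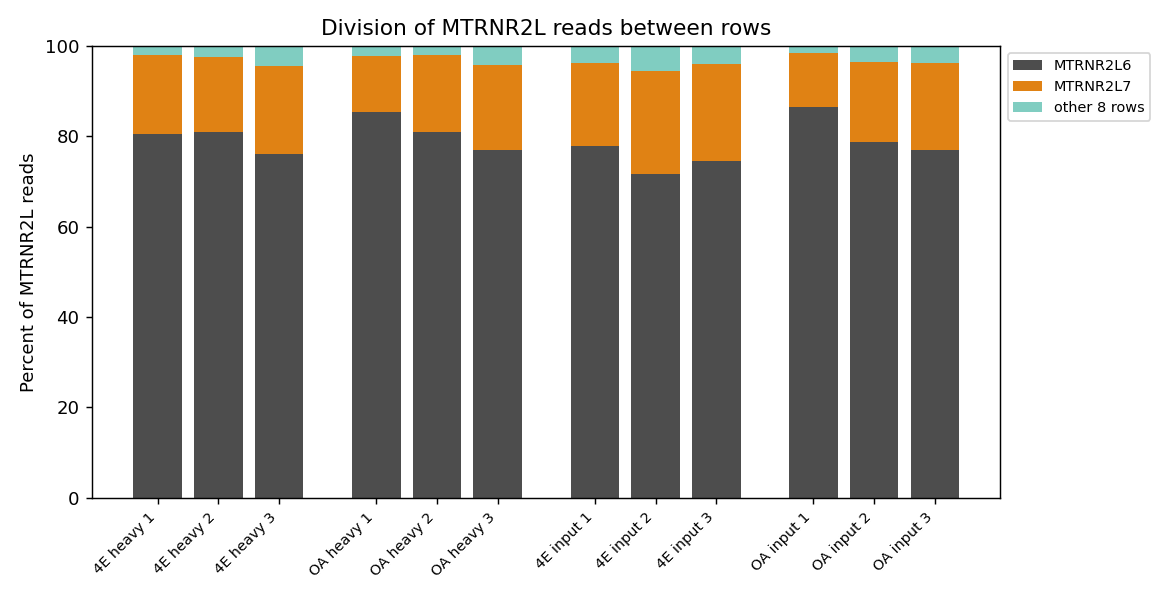
Share of MTRNR2L reads, in percent, held by MTRNR2L6, by MTRNR2L7 and by the other 8 MTRNR2L rows in each of the 12 libraries (stacked bars from 0 to 100). MTRNR2L6 is the largest part of every bar, and OA replicate 1 has the smallest MTRNR2L7 part in both fractions.

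Heavy RNA was set against input within each arm to compare what sedimented with polysomes with the total. In the 4E arm all 6 members were lower in heavy, with a median log2 change of -2.87, where all tested genes had a median of 0.04. In CPM the heavy mean was 19.3% of the input mean for MTRNR2L6, 15.4% for MTRNR2L7, 15.1% for MTRNR2L5, 12.7% for MTRNR2L2, 9.26% for MTRNR2L1 and 6.41% for MTRNR2L10. The log2 change was -2.38 (SE 0.48) for MTRNR2L6 and -2.69 (SE 0.56) for MTRNR2L7. It was -3.42 (SE 0.67) for MTRNR2L1 and -2.73 (SE 0.57) for MTRNR2L5. For the sparse pair it was -3.02 (SE 0.79) for MTRNR2L2 and -3.98 (SE 0.81) for MTRNR2L10.

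Called with edgeR's quasi-likelihood test at an adjusted p under 0.05 were 70 of 7465 genes, 0.938%, all lower in heavy, and 5 of the 6 members were among them, MTRNR2L2 not. The rule used this contrast, so nothing is read from that count. In TMM CPM the 4E heavy and 4E input libraries did not overlap for any of the 6 members. Of tested genes, 5.79% were lower and 7.9% higher without overlap. As plain shares of gene reads, the summed rows overlapped between these groups. The rule used these groups, so nothing is read from the non-overlap either. The calls of the members rested on several 4E libraries: without 4E heavy replicate 2, or without 4E input replicate 2, 0 of 6 were called. The members' median was still -2.80 without that heavy library and -2.61 without that input library. In those fits 47 of 7342 genes (0.64%) and 61 of 7461 genes (0.818%) were called in all. Calls fell to 3 members without 4E heavy replicate 1, beside 54 of 7321 genes (0.738%). They fell to 1 member without 4E heavy replicate 3, beside 56 of 7422 genes (0.755%). They fell to 2 members without 4E input replicate 1, beside 62 of 7462 genes (0.831%).

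In the OA arm all 6 members were lower in heavy too, with a median log2 change of -3.62 beside 0.01 for all tested genes. The heavy mean was 8.81% of the input mean for MTRNR2L6, 8.91% for MTRNR2L7, 9.61% for MTRNR2L1, 8.0% for MTRNR2L5, 6.34% for MTRNR2L2 and 4.08% for MTRNR2L10. The log2 change was -3.51 (SE 0.51) for MTRNR2L6, and -3.50 (SE 0.58) for MTRNR2L7. It was -3.43 (SE 0.69) for MTRNR2L1, -3.74 (SE 0.62) for MTRNR2L5, -3.97 (SE 0.85) for MTRNR2L2 and -4.60 (SE 0.85) for MTRNR2L10. Of 7465 genes, 51 were called, 0.683%, all lower in heavy, with all 6 members among them. The rule used this contrast as well, so nothing is read from that count, and the heavy counts of MTRNR2L10 are 1 to 4. In TMM CPM, OA heavy lay below OA input without overlap for 5 of 6 members. Of tested genes, 3.35% were lower and 4.19% higher without overlap. Nothing is read from this count of members either.

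The difference was about as large without OA replicate 1 in both fractions, where the members' median in the OA arm was -3.55. Without OA input replicate 2, the library with the highest MTRNR2L6 level, it was -2.88. In that fit 3 of 6 members and 42 of 7449 genes (0.564%) were called. In a fit of the OA groups alone, 10 of 7046 genes (0.142%) and 0 of 6 members were called.

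The size of the heavy and input difference depended on how libraries were scaled. With gene-read totals in place of TMM factors, the median over all tested genes moved to 1.96 in the 4E arm and to 1.23 in the OA arm. The members' median was then -0.93 in the 4E arm and -2.05 in the OA arm. In the 4E arm 2 of 6 members were called on totals, where 6016 of 7465 genes (80.6%) were called. Relative to all tested genes the members stood at -2.89 in the 4E arm under totals and at -2.92 under TMM, and in the OA arm at -3.29 under totals and -3.63 under TMM. On totals MTRNR2L6 stood at -0.44 and MTRNR2L10 at -2.05 in the 4E arm, the smallest and the largest of the members there.

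**Figure D3:**
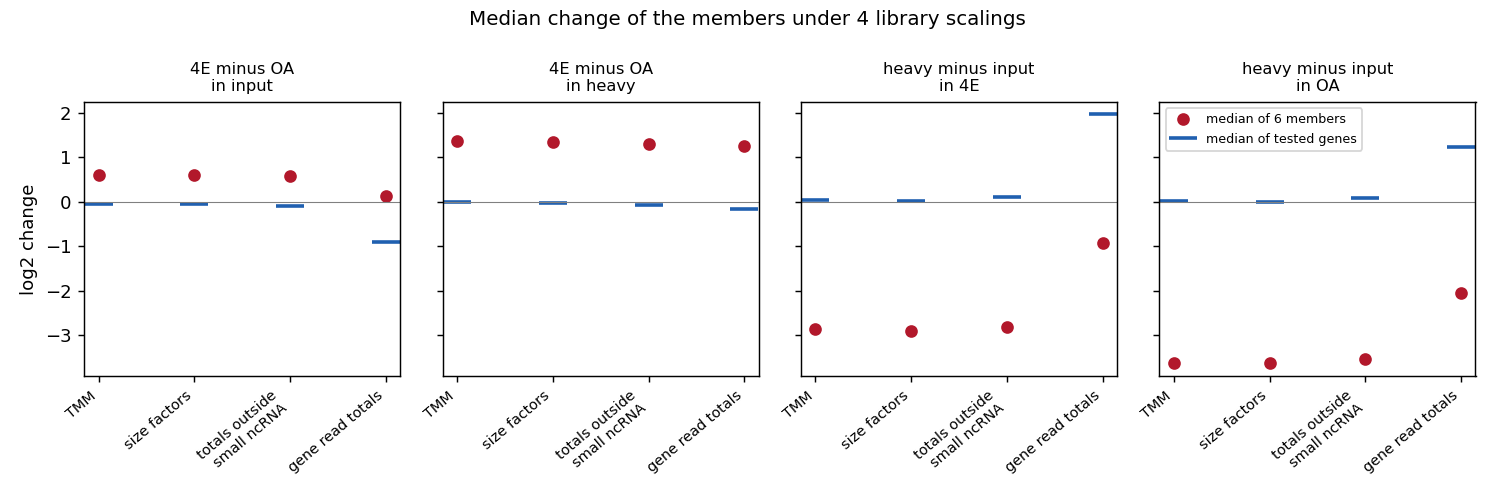
Median log2 change of the 6 members (points) and of all tested genes (bars) under 4 ways of scaling libraries, in the 4 contrasts named above the panels. On gene-read totals both medians shift up in the heavy and input panels. Relative to the tested genes the members then stand at -2.89 in 4E and -3.29 in OA, against -2.92 and -3.63 under TMM.

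The arms were compared in heavy RNA to ask which transcripts changed on polysomes under the inhibitor. All 6 members had a higher fitted level in 4E heavy than in OA heavy, with a median log2 change of 1.37 beside -0.00 for all tested genes. The 4E heavy mean was 2.56 times the OA heavy mean for MTRNR2L6, 2.59 times for MTRNR2L7, 2.82 times for MTRNR2L5 and 1.88 times for MTRNR2L1. For the sparse pair it was 2.90 times for MTRNR2L2 and 2.13 times for MTRNR2L10. These ratios are uncertain, since OA heavy held 7, 0 and 10 reads of MTRNR2L2 and 1, 4 and 1 of MTRNR2L10. An arm difference of MTRNR2L10 in heavy was not detectable at this depth. The log2 changes were 1.36 (SE 0.47) for MTRNR2L6, 1.38 (SE 0.54) for MTRNR2L7 and 1.64 (SE 0.62) for MTRNR2L5. They were 1.58 (SE 0.91) for MTRNR2L2, 1.15 (SE 1.0) for MTRNR2L10 and 1.01 (SE 0.68) for MTRNR2L1.

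No member was called in heavy, and edgeR called 0 of 7465 genes there (0%), with 612 at an unadjusted p under 0.05 and 1 called by DESeq2. In TMM CPM, MTRNR2L6 and MTRNR2L7 were the members whose heavy arms did not overlap, both with 4E higher. Of tested genes, 8.99% were higher and 8.12% lower without overlap. As plain shares of gene reads, the summed rows overlapped between the heavy arms, at 0.334% in 4E replicate 3 and 0.344% in OA replicate 3. Without OA replicate 1 in both fractions the members' median was 0.92, with MTRNR2L6 at 0.94 and MTRNR2L7 at 0.89. With no filter on low counts MTRNR2L5, MTRNR2L6 and MTRNR2L7 were among 50 of 13944 genes called (0.359%). The members were picked with these levels known, so nothing is read from these calls or from the non-overlap.

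In input the arms were closer. The members' median log2 change was 0.60 beside -0.05 for all tested genes. The change was 0.23 (SE 0.46) for MTRNR2L6, 0.58 (SE 0.52) for MTRNR2L7, 0.995 (SE 0.62) for MTRNR2L1, 0.62 (SE 0.53) for MTRNR2L5, 0.63 (SE 0.71) for MTRNR2L2 and 0.53 (SE 0.67) for MTRNR2L10. The 4E input mean was 1.17 times the OA input mean for MTRNR2L6 and 1.95 times for MTRNR2L1, the lowest and the highest of the 6 ratios. For 0 of 6 members did the input arms stand apart, where 6.28% of tested genes were higher and 7.41% lower without overlap.

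edgeR called 0 of 7465 genes in input (0%), with 785 at an unadjusted p under 0.05 and 3 called by DESeq2. The input value leaned on OA replicate 1: without it in both fractions the members' median was 0.09 and MTRNR2L6 stood at -0.10. Without OA input replicate 2 the median was 1.39. On gene-read totals the median was 0.12 and MTRNR2L6 was at -0.32, beside a median of -0.92 for all tested genes. With no filter on low counts MTRNR2L1 was among 113 of 13944 genes called (0.81%). Nothing is read from that call either, since the levels were known when the members were picked.

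**Figure D4:**
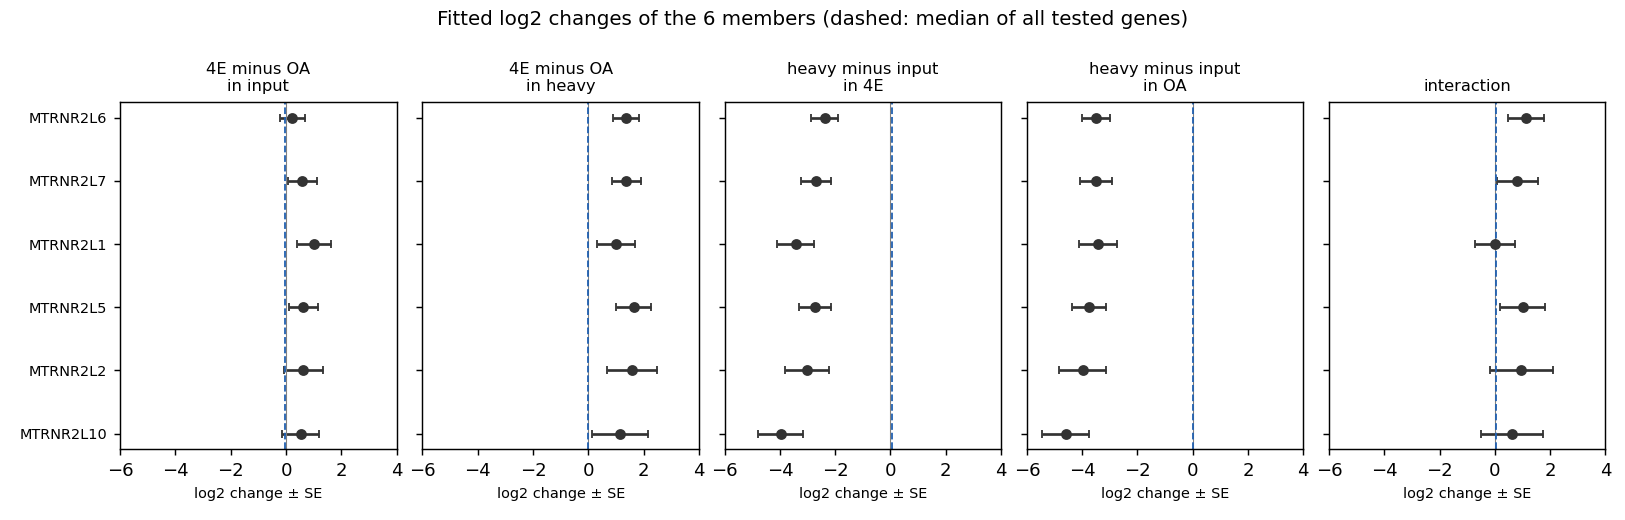
Fitted log2 change of each of the 6 members with its standard error, in the 5 contrasts named above the panels, with the median of all tested genes as a dashed line. The members lie at -4.60 to -2.38 in the heavy and input panels, at 1.01 to 1.64 in the heavy arms panel and at 0.23 to 0.995 in the input arms panel.

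Whether the heavy and input difference itself differed between arms was asked with the interaction, the log2 change from input to heavy in 4E less that in OA. It was 1.13 (SE 0.65) for MTRNR2L6, 0.80 (SE 0.74) for MTRNR2L7, 0.01 (SE 0.71) for MTRNR2L1, 1.01 (SE 0.81) for MTRNR2L5, 0.96 (SE 1.14) for MTRNR2L2 and 0.63 (SE 1.13) for MTRNR2L10. The median was 0.88 beside 0.05 for all tested genes. edgeR called 0 of 7465 genes (0%), with 160 at an unadjusted p under 0.05 and 0 called by DESeq2. Without OA input replicate 2 the members' median turned to -0.060, with MTRNR2L6 at 0.54 and MTRNR2L1 at -0.79.

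The heavy and input contrasts share no library between arms, but each arm contrast shares its libraries with them and with the interaction. The 3 kinds of difference are therefore views of the same 12 libraries. The MTRNR2L rows were also summed before the fit, which sets aside how the counted reads were divided between rows. The sum cannot address reads left out as ambiguous or reads of mt-Rnr2 counted in these rows. It gave log2 changes of 1.36 (SE 0.48) in the heavy arms and 0.32 (SE 0.47) in the input arms. From input to heavy it gave -2.47 (SE 0.50) in 4E and -3.50 (SE 0.52) in OA, and 1.04 (SE 0.67) for the interaction. These lie close to the values of MTRNR2L6, which holds most of the summed reads.

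Sums of markers of other cells were lower in 4E for stromal genes, without overlap in either fraction, and for myeloid genes, without overlap in heavy. The 2 stromal markers, collagen genes COL1A1 and COL3A1, summed to 11.7 to 17.8 CPM in 4E heavy and 36.4 to 338 CPM in OA heavy, and to 26.3 to 32.3 CPM in 4E input and 44.4 to 409 CPM in OA input. The 3 myeloid markers summed to 1.23 to 5.33 CPM in 4E heavy and 21.1 to 52.9 CPM in OA heavy, and to 0 to 9.02 CPM in 4E input and 8.06 to 32.2 CPM in OA input. MPO made up most of the sum in OA heavy, with a mean of 26.1 CPM beside 4.30 for LYZ and 2.04 for ITGAM. ITGAM went the other way in input, at 2.22 CPM in 4E and 0.956 CPM in OA, on 3 and 4 reads. Of single tested genes, 8.12% in heavy and 7.41% in input were lower in 4E without overlap. Of 3 erythroid markers HBA1 and HBA2 were at 0 and the sum was 14.2 to 87.9 CPM in 4E heavy and 43.9 to 470 CPM in OA heavy, and 21.5 to 164 CPM in 4E input and 60.1 to 328 CPM in OA input. The 3 B cell markers overlapped between arms, at 30.2 to 95.0 CPM in 4E heavy and 21.2 to 82.4 CPM in OA heavy, and 15.1 to 87.5 CPM in 4E input and 18.9 to 47.3 CPM in OA input. Of the CD8 T cell markers CD8B was at 0 and CD8A reached at most 2.66 CPM. Of 10 markers tested, edgeR called 0 in either arm contrast, with 4 in each at an unadjusted p under 0.05, all lower in 4E, and DESeq2 called 1 in heavy. COL3A1 had a log2 change of -4.64 (SE 0.88) in the heavy arms, with an edgeR adjusted p of 0.182. The share of small noncoding RNA was 10.6%, 14.5% and 16.9% in 4E heavy and 3.14%, 9.70% and 12% in OA heavy, and 75.1%, 78.3% and 76.4% in 4E input and 33.6%, 74.9% and 71% in OA input. The part of these differences in the members' values was not tested.

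The authors' deposited table, which sets an arm named OAE against OA, lists 9 of the 10 MTRNR2L rows. In the authors' deposited table the translatome log2 fold change was 1.47 for MTRNR2L6, 1.68 for MTRNR2L7 and 1.97 for MTRNR2L5, and these were classed as changed in translation alone. The same table gives transcriptome log2 fold changes of 0.32 for MTRNR2L6, 0.81 for MTRNR2L7 and 0.76 for MTRNR2L5. MTRNR2L9, which had 4, 2 and 0 reads in 4E heavy and 0 reads in all OA heavy libraries, is in the same class in the authors' deposited table. The adjusted p-values of these 4 rows in the authors' deposited table ran from 0.520 to 0.642. The same table gives MTRNR2L1 1.36, MTRNR2L2 2.23 and MTRNR2L10 1.13 in the translatome, classed as none.

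The genes whose levels ran most like the summed MTRNR2L rows were found by Pearson's r of log2(CPM + 1) over the 12 libraries, as a description. The 10 highest among 7458 other tested genes were RN7SL2 (0.966), RN7SL1 (0.962), RPLP2 (0.959), RMRP (0.956), MAP9 (0.947), SNORA38B (0.945), SNORA74B (0.945), MALAT1 (0.933), SNORA23 (0.927) and SCARNA2 (0.925). RN7SL1 and RN7SL2 are genes of 7SL, the RNA of the signal recognition particle, and RMRP is the RNA of a ribonuclease that cuts ribosomal RNA precursors. SNORA38B, SNORA74B, SNORA23 and SCARNA2 guide the modification of other RNAs in the nucleus. MALAT1 is a long nuclear RNA, RPLP2 codes for a ribosomal stalk protein and MAP9 for a protein that binds microtubules. So 7 of the 10 were small noncoding RNAs, a class that made up 65 of these genes (0.872%). The points share the contrast of heavy with input, the TMM factors and library depth, and the median r over all these genes was -0.12. Among the 6 members r ran from 0.872, between MTRNR2L2 and MTRNR2L6, to 0.988, between MTRNR2L6 and MTRNR2L7.

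RN7SL1 shows the likeness library by library. It stood at 41958, 54930 and 70256 CPM in 4E heavy and at 6777, 30850 and 41949 CPM in OA heavy, where the summed MTRNR2L rows stood at 4591, 3063 and 2047 CPM and at 434, 1425 and 1935 CPM. In 4E heavy the library with the least RN7SL1 had the most MTRNR2L, while in OA heavy both were lowest in replicate 1 and highest in replicate 3. In input RN7SL1 ran over 1304580 to 1595335 CPM in 4E and over 173736 to 1387074 CPM in OA. The 4E input levels are this high because TMM factors under 1 (0.461, 0.411 and 0.452 by replicate) raise them. In reads RN7SL1 was part of the total, with 639249 of 1006422, 707358 of 1079178 and 596060 of 1011157 gene reads in 4E input. The summed rows ran over 13388 to 21350 CPM in 4E input and 6675 to 24116 CPM in OA input.

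**Figure D5:**
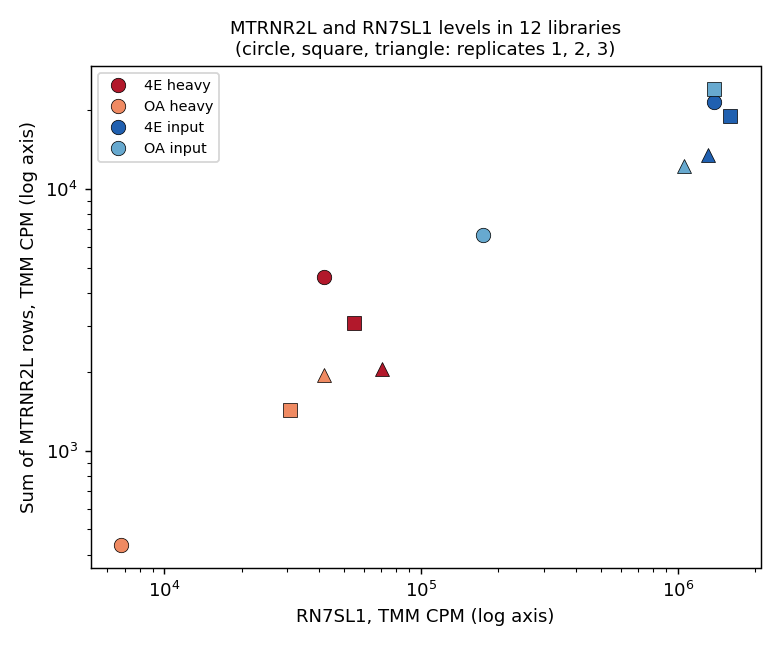
Summed level of the MTRNR2L rows against the level of RN7SL1 in the 12 libraries, both in TMM CPM on log axes, coloured by group with marker shapes for replicates. Input libraries lie up and to the right of heavy libraries, and the 4E heavy libraries run from 4591 to 2047 CPM of MTRNR2L as RN7SL1 runs from 41958 to 70256 CPM.

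Nuclear genes that serve the mitochondrial ribosome were read beside the members. Mitochondrial ribosomal proteins, which bind the 16S and 12S RNAs, had 82 of 83 symbols in the table and 29 tested. edgeR called 0 of 29 in all 5 contrasts, and DESeq2 also 0, where at most 2 had an unadjusted p under 0.05 in a contrast. Of all 7465 tested genes edgeR called 0.938% from input to heavy in 4E, 0.683% in OA and 0% in the other contrasts. An unadjusted p under 0.05 was held by 785 in the input arms, 612 in the heavy arms, 417 from input to heavy in 4E, 162 in OA and 160 for the interaction. With shares this low, nothing is read from 0 called in this list or in those below. Their median log2 change was -0.29 from input to heavy in 4E and 0.08 in OA. In the arms it was -0.10 in heavy and -0.38 in input. MRPL46, a protein of the large subunit, had -1.64 (SE 0.70) in the heavy arms and MRPS26, of the small subunit, 2.01 (SE 0.99) from input to heavy in 4E, each with an edgeR adjusted p above the threshold (0.574 for MRPL46 and 0.896 for MRPS26).

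Genes that mature mitochondrial rRNA and assemble the ribosome had 37 of 47 symbols in the table and 15 tested. By edgeR and by DESeq2 0 of 15 were called in all 5 contrasts, and at most 2 had an unadjusted p under 0.05. RPUSD4, a pseudouridine synthase of mitochondrial RNA, had the lowest p of the list in the input arms, from input to heavy in 4E and for the interaction, with edgeR adjusted p-values of 0.361, 0.452 and 0.999. It had 7, 12 and 7 reads in 4E heavy and 36, 10 and 3 in OA heavy, against 0 in all 4E input libraries and 19, 1 and 4 in OA input. No fold is given, since its mean level in each of the other groups lay under what a 0 in the 4E input libraries allows. ELAC2, which cuts tRNAs out of mitochondrial precursors, had -1.07 (SE 0.49) from input to heavy in OA with an edgeR adjusted p of 1. Genes that maintain and transcribe mitochondrial DNA had 9 of 13 symbols in the table and 3 tested, with 0 called by either tool and 0 at an unadjusted p under 0.05. POLG, the mitochondrial DNA polymerase, had 0.39 (SE 0.24) in the heavy arms and 0.29 (SE 0.25) in the input arms.

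Reported partners and receptors of humanin, known from human cells, had 10 of 10 symbols in the table and 5 tested. By edgeR and by DESeq2 0 of 5 were called in all 5 contrasts, and 2 had an unadjusted p under 0.05 in the input arms. These were BAX, which opens the outer mitochondrial membrane in cell death, with 0.80 (SE 0.26), and the ubiquitin ligase TRIM11, with 0.85 (SE 0.36), and their edgeR adjusted p-values were 0.354 and 0.421. In the heavy arms BAX had 0.57 (SE 0.24) and TRIM11 0.65 (SE 0.31), with edgeR adjusted p-values of 0.569 and 0.607.

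Cytosolic ribosomal RNA was hardly in the table. Of 15 symbols 7 were rows, 4 held any read and 2 were tested, the precursor RNA45S5 and the 5S gene RNA5S9. RNA45S5 had 20, 104 and 121 reads in 4E heavy and 55, 89 and 78 in OA heavy, against 30, 37 and 45 in 4E input and 22, 34 and 58 in OA input. Its change from input to heavy was -0.44 (SE 0.68) in 4E and -0.42 (SE 0.69) in OA, where MTRNR2L6 had -2.38 and -3.51. RNA5S9 had 7, 12 and 1 reads in 4E heavy and 3, 0 and 0 in OA heavy, against 23, 7 and 5 in 4E input and 26, 0 and 9 in OA input. Its change was -2.52 (SE 0.90) in 4E and -4.22 (SE 1.13) in OA, with edgeR adjusted p-values of 0.561 and 0.171, and DESeq2 called it in OA. RNA18S5 held 267 and 434 reads in OA heavy replicates 2 and 3, 6 in 4E input replicate 1 and 0 in the other 9 libraries, so it had reads in too few libraries to be tested.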

How the data were processed

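Counts of reads by gene symbol were deposited by the authors as whole numbers, 1 column for each of the 12 libraries, with 0 columns of other samples. The table is named as normalised, yet its totals differ between libraries and it lists reads in no gene and ambiguous reads, so they were treated as raw counts. Bowtie and mm9 are named, with no version or role, per the submitters' processing notes; the counting tool and its gene models are not stated in any source used here. Library preparation was stranded with polyA selection, per the labels' protocols, but whether counting used strand is not stated. Reads assigned to no gene or ambiguously made up 16.4% to 31.4% per library (ambiguous ones 0.384% to 1.91%) and entered neither library sizes nor tests. In 28 rows the symbol had been turned into a date; these are never named. The authors' deposited comparison table gives log2 fold changes and p-values, used only as quoted.

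Genes reaching 10 counts in 3 or more libraries entered edgeR 4.0.16 (quasi-likelihood, R 4.3.3) in 1 fit of 4 group means over 12 libraries, Benjamini-Hochberg adjusted over 7465 genes at 0.05. SEs of log2 changes came from that fit. DESeq2 1.42.0 was an alternative, and Biopython 1.88 aligned the transcripts. The test code was tested on simulated data. The members and gene lists were chosen with earlier results of these data known. Named genes were the members, the other MTRNR2L rows, the 10 most alike genes and, from each list, those called or else from the 2 of lowest p per contrast. Read intervals and floors cover counting error only.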

Additional observations from a re-analysis of the deposited data

How the results depend on the processing

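The members' median kept its direction under every alternative tried in the heavy arms, the input arms and both heavy minus input contrasts, and in 20 of 21 for the interaction. Leaving out 1 library at a time gave 0.93 to 1.95 in the heavy arms, 0.08 to 1.39 in the input arms, -3.15 to -2.61 from input to heavy in 4E, -4.42 to -2.88 in OA and -0.060 to 1.45 for the interaction. Gene-read totals gave -0.93 in 4E and -2.05 in OA from input to heavy, and the summed rows gave -2.47 in 4E. Among single members 592 alternatives stayed within the spread between replicates and 21 did not.

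Counts of genes called moved more. In the input arms they were 0 in the stated fit, 3 with DESeq2, 1 with gene-read totals, 113 with no filter on low counts, 0 to 14 leaving out 1 library and 17 without OA replicate 1 in both fractions. In the heavy arms they were 0, 1 with DESeq2, 1 with totals, 50 with no filter, 0 to 4 leaving out 1 library and 8 without OA replicate 1. From input to heavy in 4E, 70 became 6016 with totals, 43 with a minimum of 50 counts and 47 to 78 leaving out 1 library. From input to heavy in OA, 51 became 3007 with totals, 80 with no filter, 32 with the minimum of 50 counts, 10 with the OA groups alone and 35 to 69 leaving out 1 library. For the interaction, 0 became 4 with no filter. The causes were not tested, except that a higher minimum tests fewer genes.

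The titles share a number between heavy and input, but no label says what it marks. Deviations of same-numbered heavy and input libraries correlated at 0.0150 to 0.0946 in 4E and at 0.129 to 0.653 in OA, so over 0.1 in 3 of 6 pairs, and the numbers were not taken as pairs. As a hint from the data, 9 of 12 libraries correlated best with their own number. With the number as a block shared by all 4 groups, 27 genes were called in the heavy arms and 71 in the input arms. With a block for each number within an arm, 109 of 7465 genes (1.46%) were called from input to heavy in 4E. In OA 90 (1.21%) were called, and 10 (0.134%) for the interaction. MTRNR2L6 was among the genes called for the interaction, with a log2 change of 1.13. All 6 members were among those called from input to heavy in each arm. The rule used these groups, so nothing is read from these counts of members. Depth limits MTRNR2L2 and MTRNR2L10, whose heavy counts reach 15 at most.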
